A study of Papaver somniferum with 12 samples.

Results

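Leaves of opium poppy (Papaver somniferum) taken at bolting were compared with leaves taken at the seedling stage, each phase with 3 libraries, so 6 of the 12 RNA sequencing libraries entered the comparison directly. The libraries were chosen by their labelled phase, and the other 6, from jointing and florescence leaves, served to estimate the spread and to show what the same sequences did at the remaining phases. All plants belonged to the cultivar named B1, which the study regards as the unimproved state of the crop, were grown in an experimental plot without any stated treatment, and gave their uppermost leaf. Seedling plants had recently sprouted, whereas bolting plants had an elongated stem and the first visible bud at its tip. The samples of a phase were described as independent, but how many plants made up each is not given in the sources used here. Sampling ran through a single season, so the phase and the calendar date of harvest cannot be told apart.

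Opium poppy makes benzylisoquinoline alkaloids, among them morphine, in cells of the phloem and stores them in the latex of laticifers that run through stem, capsule and leaf. Bolting in general is the passage from a rosette of leaves to a flowering shoot, during which the shoot tip stops forming leaves and begins to form the flower bud. In this study the stem had already elongated at jointing, and bolting was the time when a small bud was first seen. A leaf at the tip of a bolting plant is therefore a stem leaf beside a developing bud, and a seedling leaf is one of the first leaves of the plant.

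The 61856 sequences in the table are called unigenes and were made from long reads by clustering and removal of redundant sequences. Of these, 31242 averaged 1 RPKM or more across the 12 libraries and were tested. RPKM divides the reads of a unigene by its length in kilobases and by the size of the library. The table pairs its identifiers with no gene name, and none occurs in the RefSeq gene table that was used, so the unigenes are described by their levels only and leaf marker genes were not analysed here. Each number after PB occurs in a single identifier, 61856 in all, so no isoforms of a common locus could be compared and sums by locus equal the values of the unigenes. In whole leaves, fewer cells of a type and less RNA per cell cannot be told apart.

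Bolting replicate 1 stood apart from the other bolting libraries. Across the tested unigenes on the log2(RPKM + 1) scale, its Pearson correlation was 0.961 with bolting replicate 2 and 0.973 with bolting replicate 3, while replicates 2 and 3 correlated at 0.978. With seedling replicates 1 and 2 it correlated at 0.970 and 0.967, both above its value with bolting replicate 2. With seedling replicate 3 it correlated at 0.9608, against 0.9613 with bolting replicate 2. The 3 seedling libraries correlated with each other at 0.979 to 0.983, and the 9 pairs of a seedling and a bolting library at 0.956 to 0.970. These correlations run across unigenes, which are not independent replicates. Bolting replicate 1 was the library farthest from the mean of the other two for 49.2% of the tested unigenes, against 25.9% for replicate 2 and 24.9% for replicate 3. The same shares among the seedling libraries were 35.7%, 31.7% and 32.6%. Counts are therefore also given without bolting replicate 1.

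The overall make-up of the 2 phases was close. Summed RPKM was 1125140 to 1156470 in the seedling and 1140640 to 1175900 in the bolting libraries. Unigenes above 0.1 RPKM numbered 45013 ± 322 at seedling and 45323 ± 582 at bolting (SD, n = 3 each), a difference of 309.7 that was smaller than the spread between the bolting libraries (exact permutation test, two-sided, p = 0.6). At least 15 RPKM was reached by 6410 ± 123 and 6406 ± 218 unigenes (exact permutation test, two-sided, p = 0.9). The 10 most abundant unigenes of a library held 17.6%, 18.8% and 18.4% of the summed RPKM at seedling, and 20.2%, 19.0% and 19.3% at bolting. The bolting values lay above all seedling values, by 1.22 percentage points on average (exact permutation test, two-sided, p = 0.1, the smallest that 3 libraries against 3 can give).

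A single unigene, PB.734.2622, chosen after its values were seen because it had the highest mean of the table, held 0.840 of these 1.22 percentage points. It stood at 71432, 74318 and 80775 RPKM in the seedling libraries and at 87987, 84549 and 86829 RPKM in the bolting libraries, so the phases did not overlap. Its share of the summed RPKM was 6.64% ± 0.444 at seedling and 7.48% ± 0.0712 at bolting (SD, n = 3; exact permutation test, two-sided, p = 0.1, the smallest possible here). Fitted across all unigenes, bolting lay 0.20 ± 0.20 (SE) above seedling in log2(RPKM + 1), with a 95% interval from -0.25 to 0.64, and this did not pass the test (limma, adjusted p = 0.651). The SE of this fit takes in the spread at every phase, with 60562 ± 15103 RPKM at jointing and 24126 ± 3243 RPKM at florescence (SD, n = 3). At seedling and bolting the SD was 4784 and 1749 RPKM.

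The question of the comparison was which transcripts of the leaf differ between the young plant and the plant that has formed its first bud. A unigene was called when its adjusted p was under 0.05 and its difference at least 1 on the log2(RPKM + 1) scale, which is about 2-fold for a unigene well above 1 RPKM. By this rule 457 of 31242 unigenes differed, 1.46% of those tested. At bolting 188 were higher (0.602%) and 269 were lower (0.861%). For each of the 457 the bolting values lay wholly above or below the seedling values, while among all tested unigenes 28.6% did not overlap, 5177 with bolting above and 3757 with bolting below.

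**Figure D1:**
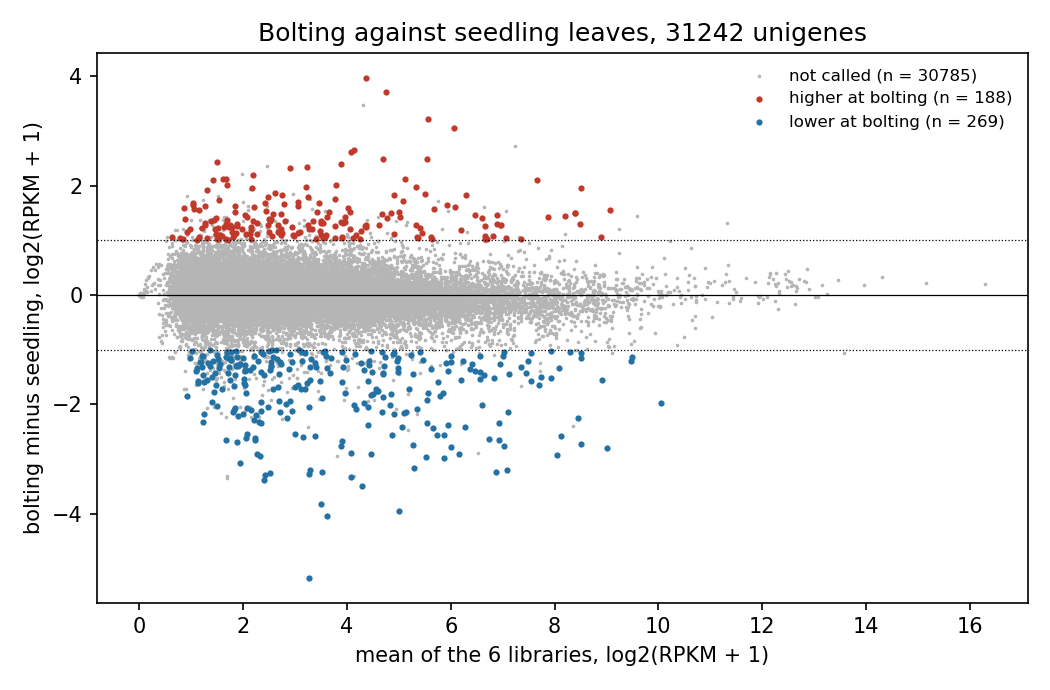
Difference between bolting and seedling leaves (vertical axis, log2(RPKM + 1)) against the mean of the 6 libraries (horizontal axis, log2(RPKM + 1)), a point for each of 31242 tested unigenes. Red points are the 188 unigenes called higher at bolting and blue points the 269 called lower, and dotted lines mark differences of 1 and -1. The blue points reach farther from 0 than the red ones.

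The lower unigenes reached farther from 0 than the higher ones. Among the 188 higher unigenes the median difference was 1.31 on the log2(RPKM + 1) scale, with quartiles of 1.13 and 1.60 and a maximum of 3.97. Among the 269 lower unigenes the median was -1.55, with quartiles of -2.14 and -1.23 and an extreme of -5.17. A difference of 4-fold or more on this scale was shown by 20 of the higher and 85 of the lower unigenes, and of 8-fold or more by 4 and 16. The thresholds shape these medians, and they are given as a description beside the median of 0.05 over all tested unigenes.

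Small differences ran the other way in the deposited values. A further 870 unigenes passed the adjusted p with a difference under 1, of which 541 were higher and 329 lower at bolting. Without the demand on size, 729 unigenes were thus higher and 598 lower (limma, adjusted p under 0.05). This majority depended on how libraries were put on a common scale. When each library was divided by the median of its ratios to the average library, the unigenes with a difference under 1 that passed were 527 higher and 650 lower. The libraries without overlap were then 4179 with bolting above and 5136 with bolting below. At 2-fold or more, lower calls were the majority in both versions of the values with the pseudocount of 1, but not with a pseudocount of 0.1, where 312 were higher and 298 lower.

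With the scaled values 498 unigenes were called, 1.59% of those tested, 171 higher and 327 lower. Both versions shared 433 unigenes with the same sign, 167 higher and 266 lower, which is 94.7% of the calls on deposited values and 86.9% of those on scaled values. None was called in opposite directions. The scaling added 61 lower and 4 higher unigenes and took away 3 lower and 21 higher ones, and it moved the overall median from 0.05 to -0.01.

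For most unigenes the libraries were precise enough to place the difference on the log2(RPKM + 1) scale. The 95% interval of the difference lay wholly between -1 and 1 for 27058 unigenes, 86.6% of those tested, and for 83.9% of the 1404 unigenes averaging 100 RPKM or more. Among the 11317 unigenes averaging 1 to 3 RPKM the share was 86.8%. There the pseudocount of 1 itself keeps differences small, so this share says less about their fold change. On the other hand, 326 unigenes differed by 1 or more without passing the adjusted p, 107 of them higher and 219 lower at bolting.

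Changes were found at every level of abundance and made up a larger share of the abundant unigenes, a description without a test. Between 1 and 3 RPKM, 33 of 11317 unigenes were higher and 58 lower at bolting. Of the 1404 unigenes at 100 RPKM or more, 23 (1.64%) were higher and 34 (2.42%) lower. The 95% interval reached 0.37 to either side of the difference in the lowest and 0.34 in the highest of these classes (medians), and the scale with a pseudocount of 1 understates changes of low unigenes. Unigenes of low abundance as a whole also shifted slightly up and those of high abundance slightly down, again without a test. The median difference over every tested unigene was 0.07 between 1 and 3 RPKM, 0.07 between 3 and 10, 0.01 between 10 and 30, -0.07 between 30 and 100 and -0.08 from 100 RPKM on. After scaling these medians ran from 0.03 to -0.15 in the same order.

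**Figure D2:**
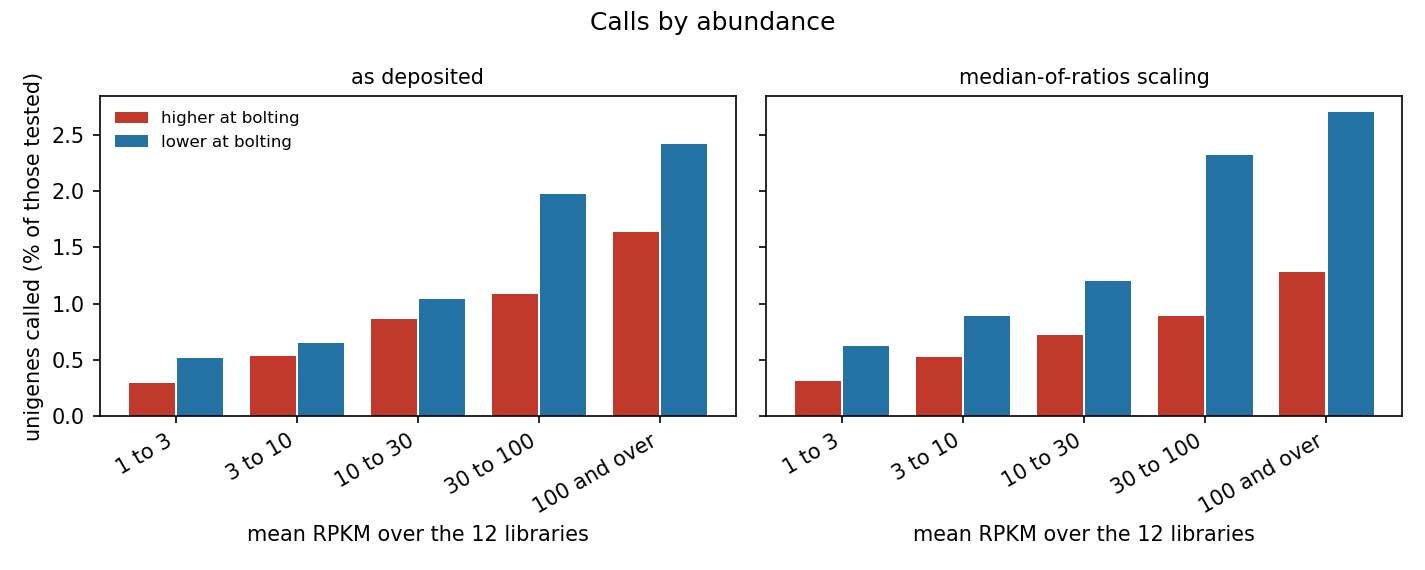
Unigenes called higher (red) or lower (blue) at bolting than at seedling, as a percentage of the unigenes tested in each class of mean RPKM over the 12 libraries, for the deposited values (left) and after median-of-ratios scaling (right). Blue bars are taller than red bars in every class and both panels, and from 100 RPKM on they stand at 2.42% and 2.71%.

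The called unigenes included well-expressed transcripts. The higher unigenes had a median level of 4.37 RPKM at seedling and 14.2 RPKM at bolting, and the lower ones 19.0 and 4.95 RPKM, where all tested unigenes had medians of 3.84 and 4.03 RPKM. A mean of at least 15 RPKM was reached by 91 of the 188 higher unigenes at bolting and by 150 of the 269 lower unigenes at seedling, and 100 RPKM by 28 and 60.

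The lower unigenes were the heavier group at seedling and the higher ones at bolting, as a share of all signal. Together the lower unigenes held 2.25%, 2.27% and 2.33% of the summed RPKM in the seedling libraries and 0.822%, 0.608% and 0.558% in the bolting libraries, the highest of these in bolting replicate 1. The higher unigenes held 0.414%, 0.313% and 0.327% at seedling and 1.01%, 0.937% and 1.02% at bolting. Since the unigenes were selected on this difference, these shares describe its size and are no test. A share of 50% of the signal of each group came from few members, 17 of the 269 lower unigenes at seedling and 11 of the 188 higher ones at bolting. The most abundant member reached a mean of 2132 RPKM in the lower group at seedling and 916 RPKM in the higher group at bolting.

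Among the unigenes called with the same sign in both versions of the values, 222 also averaged 15 RPKM or more in one of the phases and had separate libraries, 74 of them higher and 148 lower at bolting. From these, the 2 top risers and the 2 deepest fallers are given by name.

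PB.59796.1 had 5.89, 3.84 and 3.32 RPKM in the seedling libraries and 159.5, 47.5 and 69.9 RPKM in the bolting libraries. All bolting values were above all seedling values, with bolting replicate 1 more than double the others. The mean rose 21.2-fold, from 4.35 ± 1.36 to 92.3 ± 59.3 RPKM (SD, n = 3 each), which is 3.97 ± 0.46 (SE) in log2(RPKM + 1) units by limma (adjusted p = 0.00149). Its level was 32.8 ± 11.1 RPKM at jointing and 234 ± 129 RPKM at florescence, so its phase means stood in the order of plant age.

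PB.56365.1 had 15, 4.99 and 3.30 RPKM at seedling and 68.5, 132.1 and 97.7 RPKM at bolting. The phases were well separated although seedling replicate 1 was at least 3 times the other seedling libraries. Bolting was higher by 3.70 ± 0.53 (SE) in log2(RPKM + 1) units by limma (adjusted p = 0.00446), with means 12.8-fold apart. Unlike PB.59796.1 it was high at jointing, with 192.2, 138.6 and 412.6 RPKM, and low at florescence, with 5.18, 1.72 and 1.91 RPKM. From jointing to florescence it fell by 5.93 in log2(RPKM + 1) units (limma, adjusted p = 1.88e-05).

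PB.60083.2 showed the largest fall. Its seedling libraries stood at 38.5, 128.7 and 36.6 RPKM and its bolting libraries at 2.07, 0 and 0.34 RPKM. Seedling replicate 2 was more than 3 times the other seedling libraries, and each bolting library was far below each of them. By limma this is -5.17 ± 0.55 (SE) in log2(RPKM + 1) units (adjusted p = 0.00101). The size depends on the pseudocount, since the bolting values are near 0. With a pseudocount of 0.1 the difference was -6.96 (limma, adjusted p = 0.0122), and without seedling replicate 2 it was -4.59 with the pseudocount of 1. The unigene was at most 1.77 RPKM in any jointing library and at most 0.47 RPKM in any florescence library.

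PB.60876.1 had nearly equal seedling libraries, at 48.3, 47.9 and 50.5 RPKM, and bolting libraries at 4.87, 1.70 and 0.73 RPKM. It was 20.1-fold higher at seedling in the means, which is -4.05 ± 0.67 (SE) in log2(RPKM + 1) units for bolting by limma (adjusted p = 0.00891). Its jointing libraries were uneven, at 20.1, 29.5 and 3.14 RPKM, and its florescence libraries stood at 1.08, 0.65 and 3.44 RPKM.

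**Figure D3:**
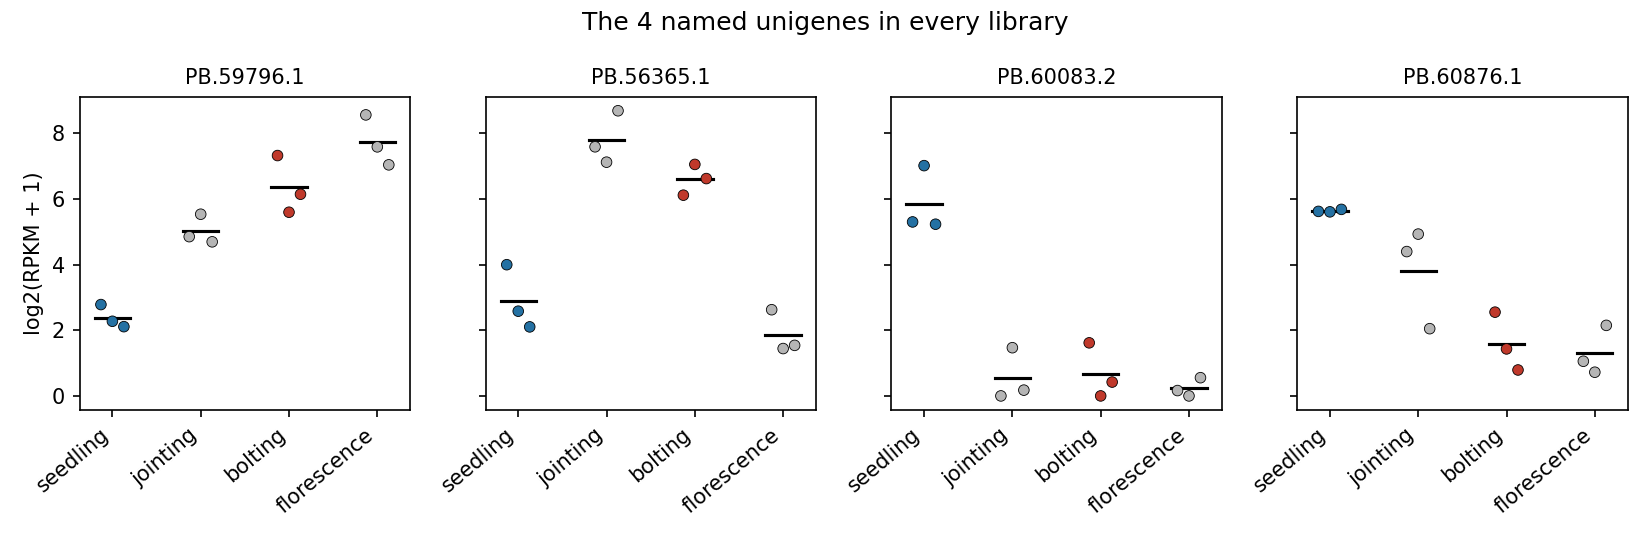
Level of the 4 named unigenes on the log2(RPKM + 1) scale in each of the 12 libraries, by phase, with a point for each library (blue seedling, red bolting, grey the other phases) and a bar for the mean of 3 libraries. The seedling and bolting points do not overlap in any panel, and the florescence points of PB.56365.1 lie below its bolting points whereas the florescence mean of PB.59796.1 is above its bolting mean.

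Complete switches between the phases were rare. A unigene was counted as on in a phase with at least 1 RPKM in each of its 3 libraries and off with at most 0.1 RPKM in each, and the unigenes found by this count are named after their values were seen. Only PB.57857.1 was off at seedling and on at bolting. It was listed at 0, 0.06 and 0.07 RPKM at seedling and at 2.24, 1.88 and 2.27 RPKM at bolting, which is 1.58 ± 0.14 (SE) in log2(RPKM + 1) units by limma (adjusted p = 0.000448), and it was on in all jointing libraries too, with 2.56 to 4.09 RPKM.

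The reverse, on at seedling and off at bolting, was found for 5 unigenes. PB.54776.1 had 3.45, 1.83 and 2.73 RPKM at seedling and was listed at 0 in all bolting and all florescence libraries, although the jointing libraries held 1.74 to 2.29 RPKM. PB.22112.1 had 3.73, 4.54 and 4.50 RPKM at seedling and 0.10, 0.06 and 0 RPKM at bolting. Both passed the test, with differences of -1.85 ± 0.16 and -2.32 ± 0.21 (SE; limma, adjusted p = 0.000329 and 0.000437). PB.15286.1, with 1.5 to 2.46 RPKM at seedling, PB.12879.1, with 1.72 to 2.38, and PB.16948.2, with 1.31 to 1.46, averaged under 1 RPKM and were not tested. Their jointing values ran from 0.06 to 0.96 RPKM, above 0.1 RPKM in 2 or 3 of the jointing libraries.

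The other phases separated the called unigenes into different courses. The comparison of florescence with jointing shares no library with that of bolting with seedling, although both take their spread from the same fit. The background over all tested unigenes was 4.66% with florescence above jointing and 5.59% with florescence below. Among the 188 unigenes higher at bolting, 35 (18.6%) were higher and 54 (28.7%) were lower at florescence than at jointing. Among the 269 unigenes lower at bolting, 64 (23.8%) were higher and 42 (15.6%) were lower. These shares stand above the background in both directions for both groups and are given as counts without a test. On scaled values the background was 4.34% higher and 5.3% lower, and the shares in the order above were 17.6%, 28.2%, 23.0% and 14.9%.

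The levels of these courses are given on scaled values, where the median of all tested unigenes lay between 2.42 and 2.44 on the log2(RPKM + 1) scale at each phase. In the deposited values the overall median difference was 0.34 for jointing and 0.33 for florescence against seedling, so comparisons with these phases would carry that shift. The 54 unigenes higher at bolting and lower at florescence than at jointing had median levels of 2.62 in seedling leaves, 4.14 in jointing, 4.44 in bolting and 1.81 in florescence leaves. Their rise from seedling to bolting and their fall from jointing to florescence are fixed by how they were chosen. Their medians were high at jointing and bolting and low before and after, and PB.56365.1 belongs to them. The 35 unigenes higher at both bolting and florescence had 2.57, 2.81, 4.06 and 4.57 in the same order, with jointing closer to seedling than to bolting. For the 99 without a call between florescence and jointing the medians were 2.58, 3.22, 3.81 and 3.45.

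Among the unigenes lower at bolting, the 64 that were higher at florescence than at jointing had median levels of 4.61 in seedling leaves, 2.43 in jointing, 3.13 in bolting and 4.50 in florescence leaves (scaled log2 values). Whether florescence lay above or below seedling depended on the scaling: their library medians were 4.45 to 4.64 at florescence and 4.47 to 4.96 at seedling on scaled values, but 4.74 to 4.82 and 4.24 to 4.70 on deposited values. At bolting their medians were 3.74 in replicate 1 and 2.83 and 2.64 in replicates 2 and 3, so replicate 1 lay between the seedling libraries, at 4.47 to 4.96, and the other bolting libraries. The 42 that were lower at florescence than at jointing had medians of 5.66, 3.92, 2.94 and 1.32 over the 4 phases, with jointing libraries from 3.23 to 4.46. The remaining 163 had 4.24, 2.45, 2.27 and 2.34. These unigenes were chosen for their seedling and bolting levels, so the fall between these phases is fixed by the choice. Likewise, the split by florescence against jointing fixes the direction between those phases in each called course of both groups.

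**Figure D4:**
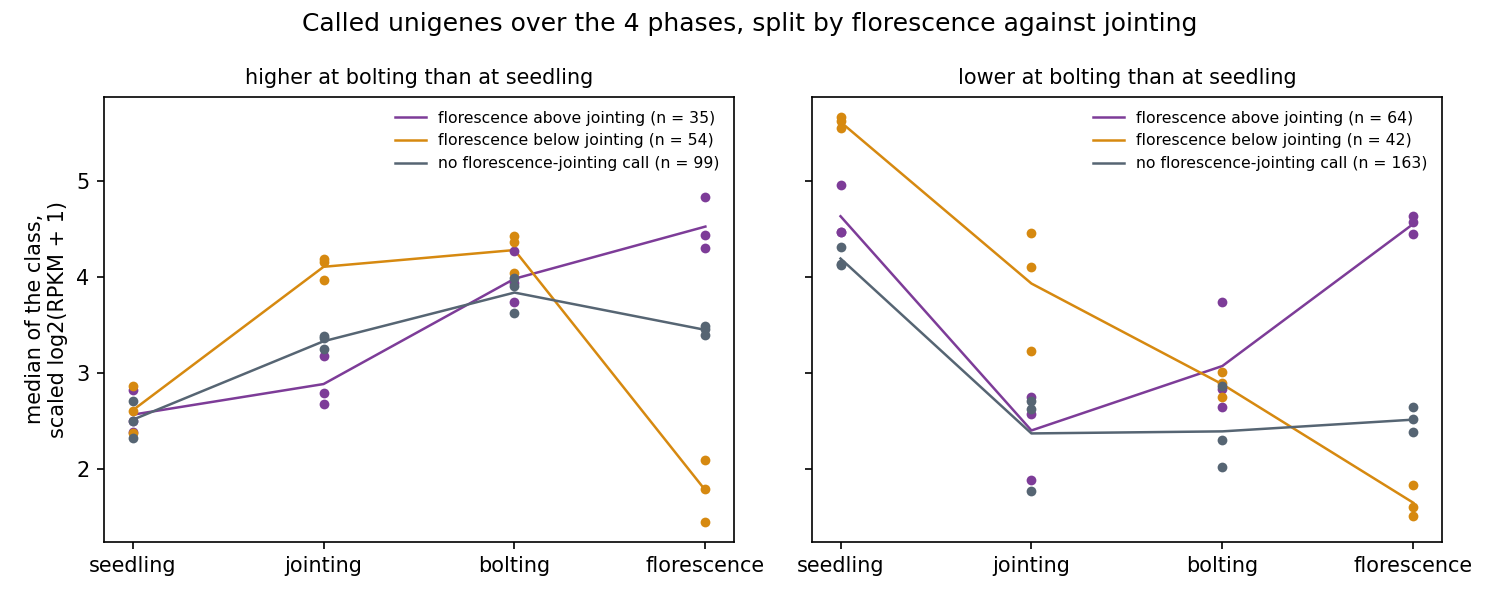
Median level, in scaled log2(RPKM + 1), of the unigenes called higher (left) or lower (right) at bolting than at seedling, split by their call between florescence and jointing, with a point for each library and a line through the phase means of the 3 points. The 54 unigenes of the orange line at the left have library medians of 1.44 to 2.09 at florescence, and the 64 of the purple line at the right have 4.45 to 4.64 there, against 4.47 to 4.96 at seedling, an order that turns on deposited values (4.74 to 4.82 and 4.24 to 4.70).

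Without bolting replicate 1, which was chosen for this after its values were seen, the higher unigenes lower at florescence than at jointing numbered 105 of 263 and the lower unigenes higher at florescence 108 of 343, which is 39.9% and 31.5%. Over all tested unigenes this fit gave 5.59% lower and 4.67% higher at florescence. The higher unigenes also higher at florescence then numbered 35 (13.3%), and the lower unigenes also lower at florescence 42 (12.2%). With all libraries these shares were 18.6% and 15.6%. Without jointing replicate 3 the lower unigenes that were also lower at florescence than at jointing numbered 80 of 339 (23.6%), where the background was 5.06% lower and 4.44% higher at florescence. That fit called 207 unigenes higher and 339 lower at bolting, against 188 and 269 with all libraries, although the library left out belonged to neither phase.

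Leaving out single libraries changed the number of calls but not which direction held the majority. Leaving out bolting replicate 1 raised the calls to 606, with 263 higher and 343 lower. Leaving out bolting replicate 3 reduced them to 236, with 108 higher and 128 lower, and leaving out seedling replicate 2 to 241, with 108 and 133. Of the seedling and bolting libraries, bolting replicate 3 had the lowest RNA integrity that the study lists. A purity ratio of its RNA was also under the limit that the study states. Whether RNA quality bears on the calls was not tested. Without seedling replicate 1, seedling replicate 3 or bolting replicate 2 the lower calls dropped to 169, 165 and 169, and the higher ones to 155, 143 and 142. In all 6 of these fits lower calls outnumbered higher ones. A core of 187 unigenes, 84 higher and 103 lower, was called in every fit that left out a seedling or a bolting library and in the full fit. The 4 unigenes named for their size of change are part of this core.

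**Figure D5:**
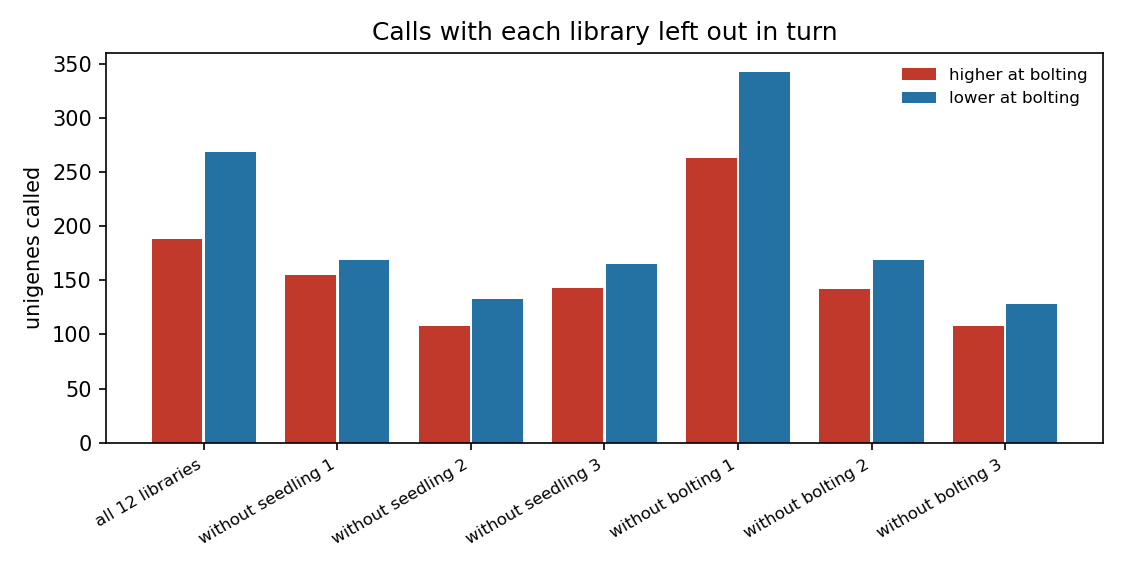
Number of unigenes called higher (red) or lower (blue) at bolting than at seedling in the fit on all 12 libraries and in 6 fits that each left out a seedling or bolting library. The counts are lowest without bolting replicate 3 (108 and 128) and highest without bolting replicate 1 (263 and 343).

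Bolting libraries also varied more for the unigenes that were lower there. The median SD between the 3 libraries of a phase on the log2(RPKM + 1) scale was 0.42 at bolting and 0.22 at seedling for the 269 lower unigenes, and 0.25 and 0.29 for the 188 higher ones. In both groups the larger SD was thus in the phase where the group was low. Over all tested unigenes it was 0.17 at bolting and 0.13 at seedling. Bolting replicate 1 was the farthest of the bolting libraries for 53.5% of the lower and 42.0% of the higher unigenes, one share above and the other below the 49.2% of all tested unigenes.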

How the data were processed

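Total RNA of opium poppy leaves was read from both ends of its fragments by Illumina sequencing. According to the study's methods and the submitters' processing notes, the authors mapped the reads with hisat2 version 2.05 to unigenes made from pooled PacBio long reads (by ICE and Arrow, then LoRDEC and CD-HIT), estimated expression with RSEM and deposited RPKM values with at most 2 decimals. The methods name the fragment form of this unit. No normalization between libraries beyond RPKM is stated. RPKM removes depth but not composition, and reads of near-identical unigenes were divided by estimation, so a single value with close relatives is uncertain. The table holds no counts, so no counting interval was computed. From 106 unigenes with isolated low values the relative depth of the 12 libraries was put at 0.909 to 1.17 of the mean, a rough figure because RSEM values need not be whole reads.

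Libraries were assigned to phases by their titles, and columns to libraries by the code in the sample description (0 columns unmatched). log2(RPKM + 1) was fitted with limma 3.58.1 in R 4.3.3 with a mean-variance trend, phase as the only factor and all 12 libraries, and p-values were adjusted by Benjamini-Hochberg over 31242 unigenes averaging 1 RPKM or more. The DESeq test named by the submitters needs counts and was not applied. Scaling factors were medians of ratios over 43618 unigenes above 0 in all libraries. Single values were compared by exact permutation over the 20 arrangements of 3 against 3 libraries, two-sided. The named unigenes were the 2 largest rises and 2 largest falls among those called with the same sign in both versions, averaging 15 RPKM or more in one of the phases and without overlap. Others are named where a count was small or the unigene was the most abundant. Unigenes and tests were chosen with earlier results of these data known. Where plants were pooled is not given, so p-values measure the spread between these samples. Alternatives covered scaling, pseudocount, filters, thresholds, the libraries in the fit, a replicate block and leaving out each seedling or bolting library. Jointing replicate 3 was left out as well, for the counts of the courses.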

Additional observations from a re-analysis of the deposited data

How the results depend on the processing

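The 4 named unigenes kept their direction and stayed called in every alternative run for them, and the differences in detected unigenes, in the share of the top 10 unigenes and in the share of PB.734.2622 kept their sign in all of theirs. The on and off unigenes fell to 1 when exactly 0 RPKM was demanded in the other phase. A pseudocount of 0.1 gave 312 higher and 298 lower calls, so the majority turned. A minimum mean of 10 RPKM, which leaves fewer unigenes to test, gave 273 calls, 111 higher and 162 lower. Without the demand on size there were 1327 calls, 729 higher and 598 lower, and at an adjusted p under 0.01 there were 199, with 95 higher and 104 lower. With each seedling or bolting library left out in turn the calls ran from 236 to 606, by unigene or by locus prefix, the higher ones from 108 to 263 and the lower ones from 128 to 343. Such a fit has fewer samples. In the same fits the detected difference ran from 57.2 to 627.7 unigenes, the top 10 difference from 0.864 to 1.49 and the PB.734.2622 difference from 0.693 to 1.10 percentage points. The difference in detected unigenes was 731.3 when at least 1 RPKM was demanded and 144.3 on scaled values, against 309.7, and the share of the top 100 unigenes differed by 3.36 percentage points, against 1.22 for the top 10. The remaining alternatives for the number of calls, which were equal totals (452 calls), quantile normalization (462), no filter on low values (365), the 6 libraries alone (406) and scaling (498), stayed within 1.5 times of 457. Whether the replicate numbers pair the libraries cannot be decided from 3 libraries per phase. Deviations of same-numbered seedling and bolting libraries from their phase means correlated at 0.157, 0.138 and -0.0534. Replicates 1 and 2 of both phases correlated best with their own number. Seedling replicate 3 did so with bolting replicate 2 (0.137), and bolting replicate 3 with seedling replicate 1 (0.140). With the replicate block there were 328 calls on the 6 libraries and 456 on all 12. The number of reads behind a value is unknown, which limits unigenes of low RPKM.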
